A study of Mus musculus with 12 samples.

Results

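The genes described here are the vascular endothelial growth factor (VEGF) ligands Vegfa and Vegfc, the endothelial receptors Kdr, Flt1, Flt4 and Tek, the Tek ligand Angpt2, the endothelial junction genes Pecam1 and Cdh5, and the lymphatic regulator Prox1. They were chosen by name, as ligands with their receptors and the markers of blood and lymphatic vessels, and all 10 were found among the 32498 rows of the expression tables that carry a gene name. They were read in 12 tongue libraries of C57BL/6 mice, bought at 5 weeks of age. All mice had drunk water with the carcinogen 4-nitroquinoline-1-oxide (4NQO) at 100 µg/mL for 16 weeks and regular water afterwards. From week 4 of 4NQO, 1 group of 6 was gavaged 5 times per week with gallic acid (GA) at 100 mg/kg and the other 6 with an equal volume of vehicle, until sacrifice. Both groups thus carried 4NQO, and no library without carcinogen was analysed here. The tissue was labelled as tumor and tumor-associated, and no label gives the share of tumor in a library. The comparisons asked whether these genes differed between GA-treated and vehicle-treated mice, and whether Vegfa followed skeletal muscle (Ckm) or squamous epithelium (Krt13) from library to library.

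VEGF-A binds Kdr (VEGFR2) and Flt1 (VEGFR1) on blood endothelium, whereas VEGF-C acts mainly through Flt4 (VEGFR3), the receptor that drives growth of lymphatic vessels. Angpt2 is released by endothelial cells and modulates the receptor Tek (Tie2), which keeps resting vessels stable when it is bound by Angpt1. The ligand Vegfa is made by many cell types, among them muscle fibres and keratinocytes, and is raised by hypoxia-inducible factor (HIF), whereas the receptors and junction genes mark the endothelium itself. The tongue is built of striated muscle rich in capillaries under a keratin-rich squamous epithelium, so a piece of tongue can differ widely in both.

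Promoter sequences are shown for Kdr, Flt1, Tek and Vegfa, the receptors of blood endothelium and the ligand whose relations to muscle and epithelium are described below. RefSeq windows were found for 7 of the 10 genes, and the 250 bases before a start site were used (build GRCm38.p6, written in the direction of the gene). Capitals mark GGAA on either strand, the core bound by ETS factors, a family that includes the endothelial regulator Erg. The windows lie at chr5:75978456-75978705 on the minus strand for Kdr, at chr5:147726012-147726261 on the minus strand for Flt1, at chr4:94739039-94739288 on the plus strand for Tek and at chr17:46032378-46032627 on the minus strand for Vegfa.
Kdr: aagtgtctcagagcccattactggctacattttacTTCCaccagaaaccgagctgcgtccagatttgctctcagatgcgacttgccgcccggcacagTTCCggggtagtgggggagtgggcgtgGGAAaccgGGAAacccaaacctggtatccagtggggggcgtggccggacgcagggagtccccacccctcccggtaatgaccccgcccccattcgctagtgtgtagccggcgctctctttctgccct
Flt1: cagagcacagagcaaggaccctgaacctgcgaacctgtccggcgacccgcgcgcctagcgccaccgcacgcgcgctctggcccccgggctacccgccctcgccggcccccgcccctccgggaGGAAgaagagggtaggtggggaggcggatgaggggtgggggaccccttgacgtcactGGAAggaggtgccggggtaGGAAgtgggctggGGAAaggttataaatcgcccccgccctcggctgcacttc
Tek: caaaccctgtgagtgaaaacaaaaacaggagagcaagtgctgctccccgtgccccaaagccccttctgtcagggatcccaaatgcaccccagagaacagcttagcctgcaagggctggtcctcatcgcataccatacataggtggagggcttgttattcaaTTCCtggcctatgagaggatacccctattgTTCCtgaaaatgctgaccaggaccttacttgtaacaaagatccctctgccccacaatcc
Vegfa: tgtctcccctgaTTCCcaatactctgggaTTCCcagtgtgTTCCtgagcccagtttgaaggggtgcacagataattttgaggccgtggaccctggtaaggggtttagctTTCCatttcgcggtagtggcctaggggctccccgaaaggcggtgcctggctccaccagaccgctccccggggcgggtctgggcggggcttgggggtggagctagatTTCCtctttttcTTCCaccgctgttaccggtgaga
GGAA occurred 4 times in the Kdr window, 4 times in the Flt1 window, 2 times in the Tek window and 6 times in this Vegfa window. This short core was found in 93.4% of all 32851 windows of this length, with a median of 3 matches, and 8.69% of windows held at least as many as Vegfa. ACGTG, 1 form of the HIF core, was searched on both strands and was in 16.6% of all windows. Other forms of this core were not searched. ACGTG was in 1 of the 9 windows of these genes, the second Vegfa window, which starts inside the gene at chr17:46025164-46025413. The Flt1 window held 1 TATAAA, a match found in 12.4% of windows. These matches describe the letters only.

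Levels are given as scaled FPKM, that is reads divided by exon length and library total, brought to a common scale between libraries, so that genes can be set side by side. Library totals, recovered from the FPKM values, ran from 18037937 to 21770147 reads in the vehicle group and from 21237289 to 25193122 in the GA group. Vehicle libraries 1 to 4 and GA library 1 held 3345 to 4535 reads on Y-linked genes and the other 7 held 0. Gland markers, led by the lipase gene Lipf, were high in vehicle libraries 3 and 5 and GA library 2, and neutrophil markers were high in vehicle libraries 4 and 5 and GA library 2. Vehicle library 1 had the lowest muscle marker score and the highest Krt13. Each library was taken as 1 mouse, although the labels number the replicates without naming animals, so p-values measure the spread between these libraries.

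The endothelium was read in every library. None of the 10 genes was at 0 in any library, and among 20 other pan-endothelial genes, such as Emcn, Erg and Cldn5, none was at 0 either. Ranked by mean level over 12 libraries, Vegfa stood first with 22.3 ± 7.20 scaled FPKM (SD, n = 12), before Cdh5 (12.6 ± 5.15) and Pecam1 (11.2 ± 3.69). Tek (4.54 ± 1.63), Kdr (4.11 ± 1.37) and Flt1 (3.72 ± 0.895) followed, then Flt4 (1.46 ± 0.427), Angpt2 (1.30 ± 1.14), Vegfc (1.11 ± 0.524) and Prox1 (0.326 ± 0.120). A sign-flip permutation test within libraries (two-sided, adjusted over 9 neighbouring pairs) separated 5 of these steps. Vegfa was above Cdh5 by 0.87 on the log2 scale in 12 of 12 libraries (adjusted p = 0.0011), and Cdh5 above Pecam1 by 0.14 in 11 of 12 (adjusted p = 0.00176). Such a p does not cover a bias of a gene's FPKM that all libraries share, for example from the exon length used. A step as small as 0.14 may thus not reflect RNA abundance. Pecam1 exceeded Tek by 1.31, Flt1 exceeded Flt4 by 1.29 and Vegfc exceeded Prox1 by 1.45, each in 12 of 12 libraries (adjusted p = 0.0011, sign-flip permutation test). Tek and Kdr (adjusted p = 0.388), Kdr and Flt1 (0.171), Flt4 and Angpt2 (0.118) and Angpt2 and Vegfc (0.895) were not separated beyond their spread in the same permutation test. The ligand that acts on blood vessels was thus the most abundant of the set, the blood endothelial receptors formed a middle tier, and Flt4, Angpt2, Vegfc and Prox1 were the lowest.

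GA against vehicle gave no called gene in the set. The limits for a call were an adjusted p (Benjamini-Hochberg, limma) under 0.1 together with a log2 fold change of 0.58 or more in either direction, and 0 of the 10 genes passed, as did 0 of 16849 genes tested (0% called). The adjusted p was 0.9996 in limma for each of the 10. At an unadjusted p below 0.05, 0 of the 10 genes passed, where 2.18% of all genes did (367 genes). No gene of the set had groups that did not overlap, against 0.0772% of all genes. The fitted mean log2 level was higher with GA for 9 of 10 genes, where it was higher for 47.5% of all genes. The median log2 fold change was 0.08 in the set and −0.01 over all genes. The count of 9 depended on single libraries, since it was 2 of 10 without vehicle library 1 and 5 of 10 without GA library 1. It also depended on the log scale. Mean scaled FPKM was lower with GA for Vegfc, Kdr, Flt4, Pecam1, Cdh5 and Angpt2, and higher for Vegfa, Flt1, Tek and Prox1.

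**Figure D1:**
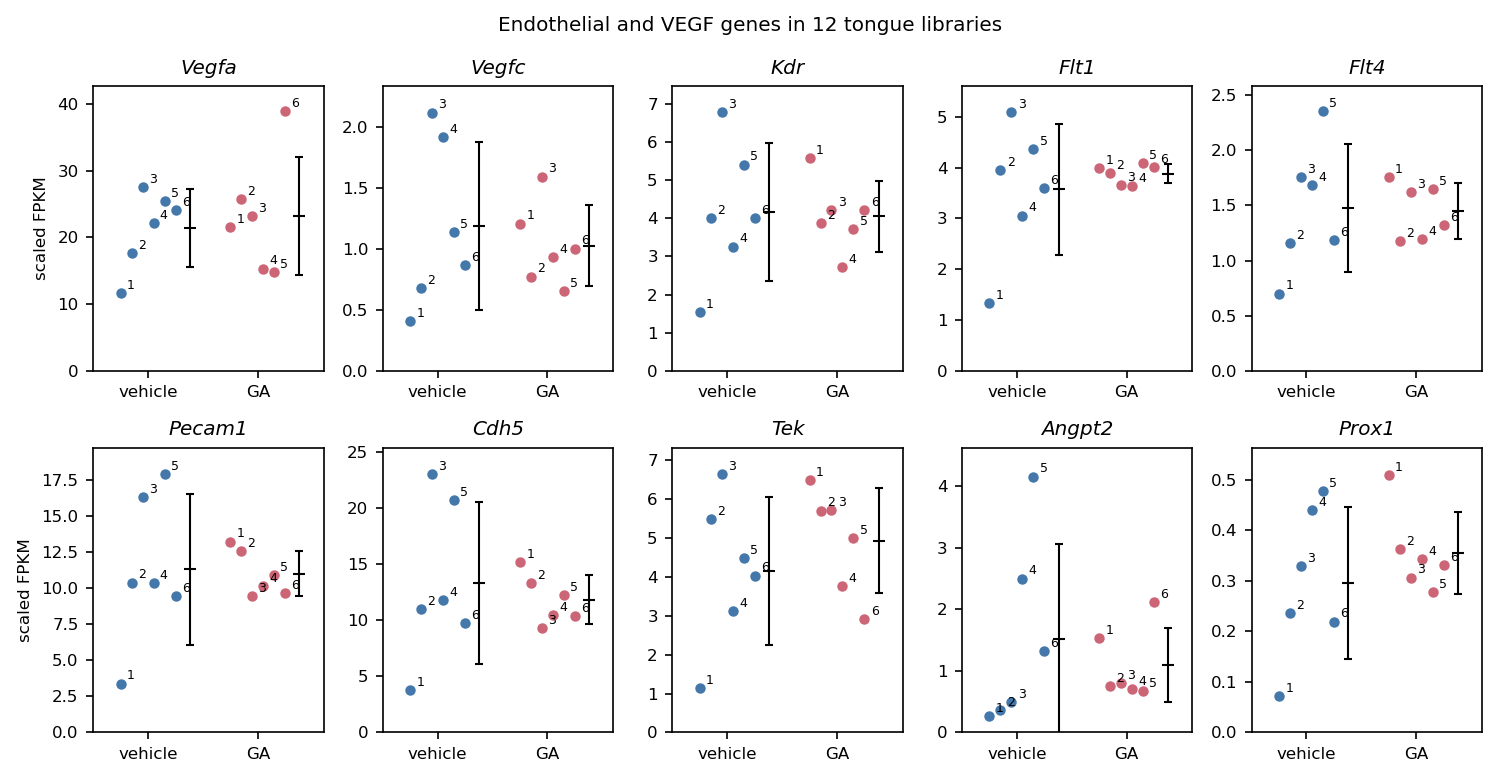
Level of each gene in 6 vehicle (blue) and 6 GA (red) libraries, in scaled FPKM on linear axes that start at 0. Numbers are the replicate numbers, and the bar to the right of each group is the mean ± SD, drawn down to 0 where the SD exceeds the mean (Angpt2, vehicle). Vehicle library 1 is the lowest point in all 10 panels, and the vehicle points spread more widely than the GA points in each panel but that of Vegfa.

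Vegfa (chromosome 17, 46016993 to 46032369, minus strand of GRCm38), the main angiogenic ligand, was read at 11.6, 17.6, 27.6, 22.2, 25.4 and 24.1 scaled FPKM in vehicle libraries 1 to 6. In GA libraries 1 to 6 it was read at 21.5, 25.8, 23.2, 15.3, 14.8 and 38.9. The groups overlapped almost wholly, with the highest value in GA library 6 and the lowest in vehicle library 1. The means were 21.4 ± 5.86 and 23.3 ± 8.82 (SD, n = 6 each), and the fitted log2 difference was 0.09 (standard error 0.26, 95% interval −0.46 to 0.65, exact permutation test p = 0.745). GA libraries were above the vehicle median in 3 of 6 cases.

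Vegfc (chromosome 8, 54077606 to 54187096), the lymphangiogenic ligand, lay between 0.406 and 2.12 scaled FPKM in the vehicle group (median 1.01) and between 0.658 and 1.60 in the GA group (median 0.970). Vehicle libraries 3 and 4 were the highest of all 12. Its fitted log2 difference was −0.06 (SE 0.35, exact permutation test p = 0.879). Its counts were small, from 18 to 109 reads in a library. Its interval of −0.82 to 0.70 spans the calling limit in both directions, so a change of that size was not excluded here. The same holds for Kdr, Cdh5 and Angpt2. For the other genes of the set the interval passes the limit on the upper side only, with upper ends from 0.5813 (Flt4) to 1.15 (Tek). An increase of that size was thus excluded for no gene of the set.

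Kdr (chromosome 5, 75932827 to 75978458), the main signalling receptor of VEGF-A, was read at 1.53, 4.01, 6.78, 3.26, 5.40 and 4.01 scaled FPKM in vehicle libraries 1 to 6. In GA libraries 1 to 6 the values were 5.58, 3.87, 4.22, 2.71, 3.71 and 4.21. Its highest and lowest values were both in the vehicle group, so that the GA values lay inside the vehicle range. The log2 fold change was 0.06 (standard error 0.30, 95% interval −0.58 to 0.70, exact permutation test p = 0.862).

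Flt1 (chromosome 5, 147561604 to 147726011), which binds VEGF-A and also acts as a decoy for it, had a narrow GA group. It was read at 1.34, 3.95, 5.10, 3.06, 4.37 and 3.60 scaled FPKM in the vehicle libraries. In the GA libraries it stayed between 3.64 and 4.09, all inside the vehicle range. The SD was 1.29 in the vehicle group and 0.191 in the GA group, and the fitted log2 difference 0.22 (SE 0.25, exact permutation test p = 0.593). Flt4 (chromosome 11, 49609263 to 49652739), the VEGF-C receptor, ranged from 0.701 to 2.35 with vehicle and from 1.18 to 1.76 with GA, and its log2 difference was 0.05 (SE 0.24, exact permutation test p = 0.844).

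Pecam1 (chromosome 11, 106654217 to 106750628) and Cdh5 (chromosome 8, 104101625 to 104144511) encode adhesion molecules of endothelial junctions, CD31 and VE-cadherin. Pecam1 was read at 3.38, 10.4, 16.3, 10.4, 17.9 and 9.44 scaled FPKM in the vehicle libraries and between 9.48 and 13.2 in the GA libraries. Cdh5 was read at 3.76, 11.0, 23.0, 11.8, 20.7 and 9.75 in the vehicle libraries and between 9.32 and 15.2 in the GA libraries. Both genes were highest in vehicle libraries 3 and 5 and lowest in vehicle library 1, with GA values between these. The log2 fold changes were 0.12 (standard error 0.32) for Pecam1 and 0.02 (standard error 0.36) for Cdh5, with exact permutation p of 0.833 and 0.968. In bulk tissue, fewer endothelial cells and less RNA of these genes per cell cannot be told apart.

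Tek (chromosome 4, 94739289 to 94874976), the angiopoietin receptor, had the largest fitted difference of the 10. It was read at 1.13, 5.47, 6.63, 3.11, 4.48 and 4.03 scaled FPKM in vehicle libraries 1 to 6 and at 6.49, 5.70, 5.71, 3.77, 4.98 and 2.91 in GA libraries 1 to 6. The groups overlapped, and 4 of 6 GA libraries were above the vehicle median. The log2 fold change of 0.37 (standard error 0.36, 95% interval −0.41 to 1.15, exact permutation test p = 0.426) was 0.05 without vehicle library 1 and 0.21 with the muscle marker score in the fit.

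Angpt2 (chromosome 8, 18690263 to 18741562), the Tek ligand of sprouting and activated vessels, varied most, by 15.4-fold between its lowest and highest library. It was read at 0.269, 0.364, 0.487, 2.50, 4.15 and 1.31 scaled FPKM in vehicle libraries 1 to 6 and at 1.53, 0.745, 0.800, 0.700, 0.673 and 2.12 in GA libraries 1 to 6. High values occurred in both groups, in vehicle libraries 4 and 5 and GA library 6. The log2 fold change was 0.02 (standard error 0.58, 95% interval −1.24 to 1.28, exact permutation test p = 0.983). Counts ran from 18 to 335 reads.

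Prox1 (chromosome 1, 190118035 to 190170714), the transcription factor that specifies lymphatic endothelium, was the lowest gene of the set, with 11 to 93 reads in a library. It ranged from 0.0720 to 0.478 scaled FPKM with vehicle (median 0.283) and from 0.278 to 0.510 with GA (median 0.337). Of the GA libraries, 5 of 6 were above the vehicle median, and the fitted log2 difference was 0.29 (SE 0.29, exact permutation test p = 0.359). Of its exon bases, 1.59% are shared with another gene, whereas the other 9 genes share none. Without vehicle library 1 the fitted difference was 0.07.

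The vehicle group was the more variable. Its SD was larger than that of the GA group for 9 of 10 genes, all but Vegfa, where this held for 59.1% of all genes. Without vehicle library 1 it still held for 9 of 10, against 48.7% of all genes. The difference in spread was not tested.

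**Figure D2:**
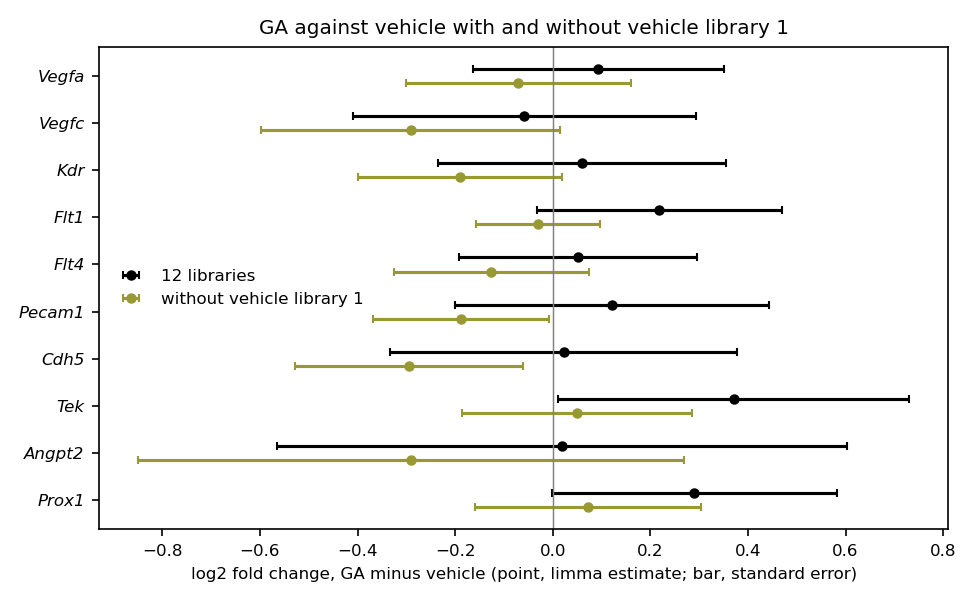
Fitted log2 fold change (GA minus vehicle) of each gene with its standard error, from 12 libraries (black) and without vehicle library 1 (olive). With 12 libraries 9 of 10 points lie above 0, and without vehicle library 1 2 of 10 do.

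A single library set much of this pattern. Vehicle library 1 was the lowest of 12 for all 10 genes, where it was the lowest for 22.1% of all genes. It was also the lowest for 19 of 20 other pan-endothelial genes, 11 of 16 arterial, tip cell and capillary genes, 8 of 11 lymphatic genes and 7 of 10 mural cell genes (pericytes and smooth muscle). It was lowest for 10 of 12 skeletal muscle markers, and for 0 of 11 epithelial and 0 of 8 fibroblast markers. Its Krt13 reached 22640 scaled FPKM, where the other 11 libraries lay between 5539 and 15380. Low vessel and muscle genes and high Krt13 thus came together in this library, and their part in the result was not tested. Vehicle libraries 3 and 5 held the highest value for 8 of 10 genes between them (5 and 3), where they held it for 13.9% and 9.21% of all genes, and both also had high gland markers. Without the 3 libraries with high Lipf, a setting chosen after seeing the data, all 10 genes had the higher fitted mean log2 level with GA, and 0 were called. The log2 fold changes of the 10 genes then ran from 0.23 for Vegfa to 0.60 for Tek. This setting leaves out vehicle libraries 3 and 5 and keeps vehicle library 1. A shift towards GA is thus built into it, and its count is no evidence of a difference.

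**Figure D3:**
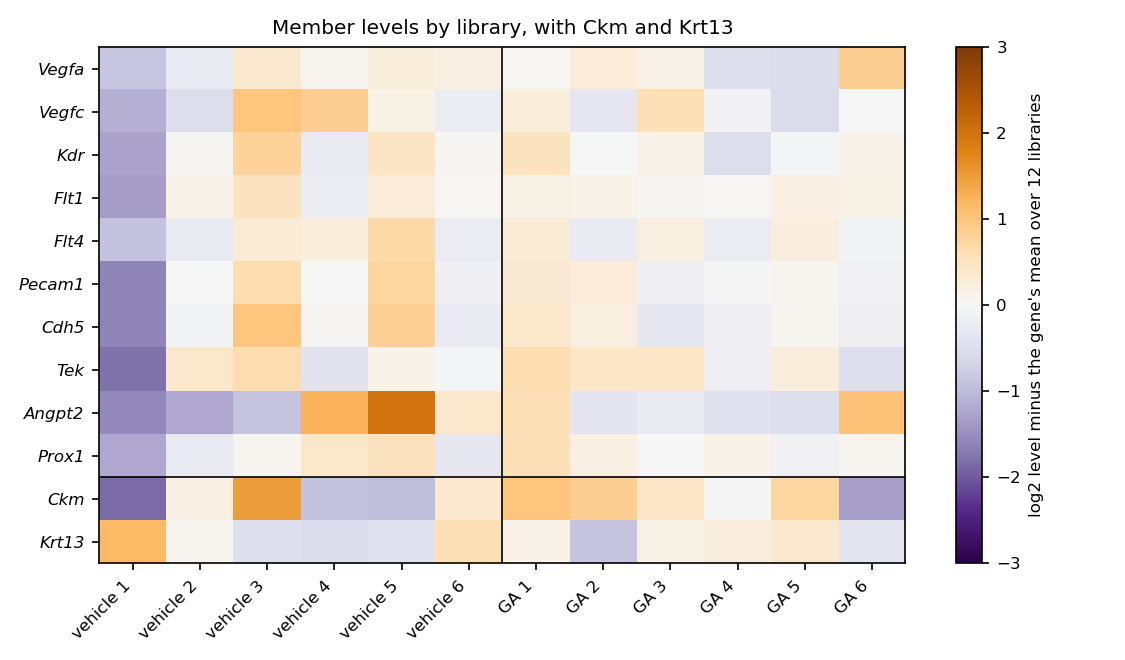
Log2 level of each gene in each library minus its mean over 12 libraries (brown above, purple below), with the muscle gene Ckm and the epithelial gene Krt13 under the horizontal line and the groups divided by the vertical line. The column of vehicle library 1 is below the mean for all 10 genes and for Ckm, and above it for Krt13.

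The other genes of the pathway did not pass either. Of 12 VEGF and Tie pathway partners, 11 passed the filter on low values (not Adamts3). Of these, 6 had a higher and 5 a lower fitted mean log2 level with GA, and 0 were called. The median log2 fold change was 0.09. The lowest p-values belonged to Pgf, a ligand of Flt1 (−0.89, standard error 0.55), to Ptprb, the endothelial phosphatase that restrains Tek (0.35, standard error 0.25), and to Ccbe1, which helps to process VEGF-C (−0.51, standard error 0.39). Their unadjusted p-values in limma were 0.130, 0.183 and 0.206, and each adjusted p was 0.9996. The vehicle median was exceeded by 0 of 6 GA libraries for Ccbe1 and by 6 of 6 for Ptprb, yet their ranges overlapped (0.177 to 0.450 against 0.166 to 1.44 scaled FPKM for Ccbe1, and 3.44 to 4.86 against 1.33 to 4.86 for Ptprb).

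The other vessel genes gave the same count of 0 calls. Of 20 other pan-endothelial genes, 17 had a higher and 3 a lower fitted mean log2 level with GA (median log2 difference 0.20). In mean scaled FPKM, Sox7, Sox18, Clec14a, Tie1, Erg, Egfl7, S1pr1, Ecscr and Eng were lower with GA, and the others higher. Vehicle library 1 was the lowest for 19 of these 20 genes, and its part in the count was not tested. Counts for the lists that follow also refer to the fitted mean log2 level. Sox7, listed as an endothelial transcription factor, had the lowest p and was lower with GA (18.2 ± 4.61 against 13.1 ± 4.29 scaled FPKM, log2 fold change −0.51, standard error 0.26, exact permutation test p = 0.106). No GA library (0 of 6) exceeded its vehicle median. Unlike most genes of the list, Sox7 was highest in vehicle library 1 (22.7) and lowest in GA library 1 (6.23 scaled FPKM). Which cell type gave its reads was not tested. Ptprb, given above, and Sox17 (0.34, standard error 0.26) had the next lowest p. Of 16 arterial, tip cell and capillary genes, 9 were higher and 7 lower, with a median of 0.01. Those with the lowest p were Hey1, a Notch target (0.21), Ephb4, a venous receptor (−0.29), and Dll4, the Notch ligand of tip cells (0.42). Of 11 lymphatic endothelial genes, 7 were higher and 4 lower, with a median of 0.11. Pdpn, which keratinocytes and fibroblasts also express, stood at 13.6 ± 10.6 with vehicle and 6.88 ± 5.25 with GA (log2 fold change −0.96, standard error 0.49, exact permutation test p = 0.110). Lyve1 (−0.15), Ccl21a (−0.11) and Mmrn1 (0.26), which mark lymphatic vessels more closely, did not pass either. Of 10 mural cell genes, 6 were higher and 4 lower (median 0.05), among them Rgs5 (0.34) and Pdgfrb (−0.23). None of these lists held a gene with an unadjusted p below 0.05.

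No gene was called in the lists of other cell types either. The counts of higher and lower genes again refer to the fitted mean log2 level. Skeletal muscle markers were higher with GA for 10 of 12 genes (median log2 fold change 0.51), and epithelial markers were lower for 11 of 11 (−0.23), neutrophil markers for 10 of 10 (−0.74), fibroblast markers for 7 of 8 (−0.24), macrophage markers for 5 of 8 (−0.12) and gland markers for 4 of 4 (−1.71). Red blood cell markers were higher for 3 of 4 (0.31). Summed muscle markers ran from 1651 to 13570 scaled FPKM with vehicle and from 2403 to 10110 with GA. With the muscle score in the fit 7 of 10 genes of the set were higher with GA, and with the presence of Y-linked reads in the fit 6 of 10 were, with 0 called in both.

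Vegfa had no relation that passed the test with Ckm, the creatine kinase of skeletal muscle. Ckm ranged from 80.1 to 822 scaled FPKM with vehicle (median 243) and from 117 to 585.5 with GA (median 443), and 15.5% of its exon bases are shared with another gene. Over 12 libraries Pearson's r of the log2 levels was 0.127 (permutation p = 0.693, adjusted 0.693) and Spearman's rho was 0.175 (permutation p = 0.587, adjusted 0.608), with adjustment over 30 relations. Of all genes, 34.6% had a rho with Ckm at least as high. Without the pair of libraries farthest from the Ckm median, r was 0.094. Within the groups of 6, rho was 0.600 with vehicle (exact permutation p = 0.242) and −0.257 with GA (exact permutation p = 0.658), and over the 7 libraries with no Y-linked reads rho was −0.357 (exact permutation p = 0.444). GA library 6, with the highest Vegfa, had the second lowest Ckm (117), and vehicle library 1 had the lowest of both.

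Nor did Vegfa rise with Krt13, a keratin of the non-cornified oral epithelium. The relation ran the other way, with r = −0.718 (permutation p = 0.00912, adjusted 0.0216) and rho = −0.657 (permutation p = 0.0233, adjusted 0.0857). Of all genes, 4.80% had a rho with Krt13 at least as low, and 4 of the 10 genes had a negative rho with an unadjusted p below 0.05 against 7.61% of all genes, while 0 of 10 had a positive one against 8.68%. Without the pair of libraries farthest from the Krt13 median, r was −0.561. Within groups rho was −0.543 with vehicle (exact permutation p = 0.297) and −0.886 with GA (exact permutation p = 0.0333), and over the 7 libraries with no Y-linked reads rho was −0.679 (exact permutation p = 0.110). Without vehicle library 1 rho was −0.555 and its unadjusted p was no longer below 0.05. With the mean of 11 epithelial markers, Krt13 included, rho over 12 libraries was 0.091. The inverse relation was thus not seen with the pooled list. The sign with this list differed between groups, with rho −0.486 with vehicle (exact permutation p = 0.356) and 0.6 with GA (exact permutation p = 0.242). Over the 7 libraries with no Y-linked reads it was 0.5 (exact permutation p = 0.267). Pecam1 (rho −0.629), Cdh5 (−0.643) and Prox1 (−0.650) had similar values with Krt13, each with an adjusted p between 0.0857 and 0.0903 (permutation test). With the pooled epithelial list their rho was −0.643, −0.636 and −0.42 (permutation test, adjusted p = 0.116, 0.116 and 0.31). Tek had the lowest rho with that list, −0.727 (adjusted permutation p = 0.0657), and r = −0.786 (adjusted permutation p = 0.00754). Its r was −0.607 without vehicle library 1 and GA library 1. The other genes of the set had rho from −0.462 (Flt1) to 0.154 (Angpt2) with that list. These relations with the list were among 70 chosen after the data were seen.

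**Figure D4:**
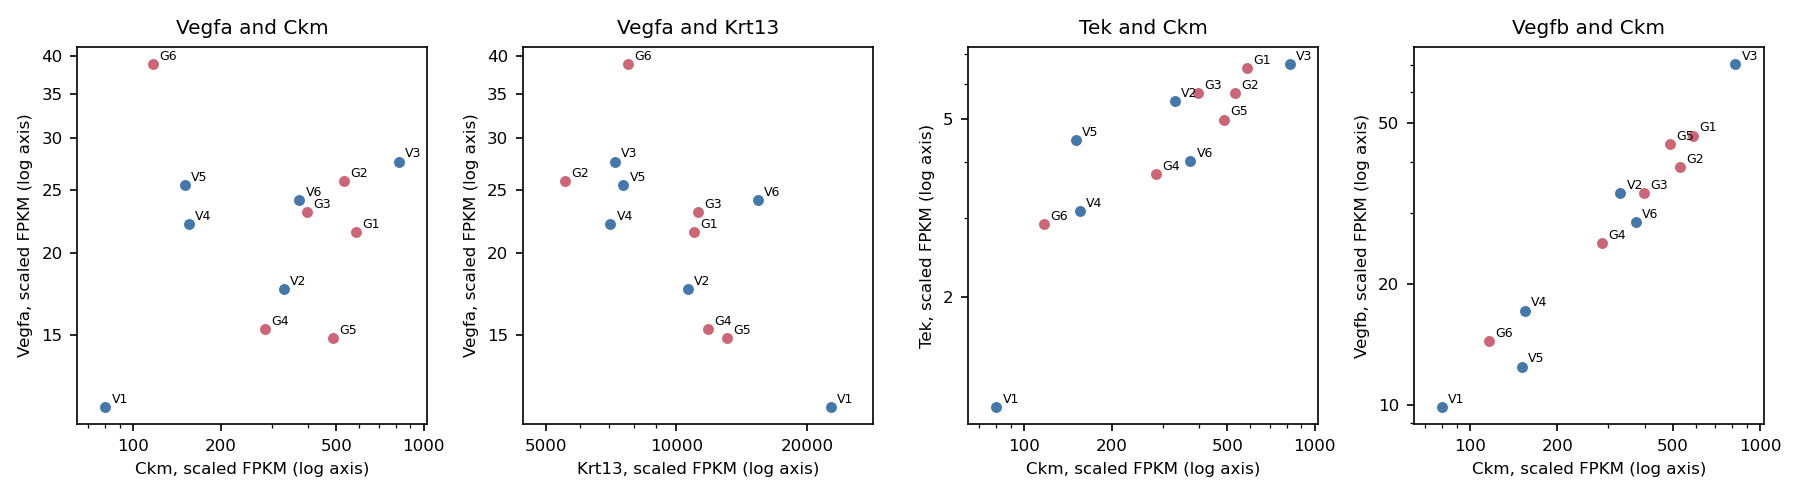
Levels of Vegfa, Tek and Vegfb against the muscle gene Ckm, and of Vegfa against the epithelial gene Krt13, in 12 libraries on log axes (scaled FPKM; V, vehicle, blue; G, GA, red; numbers are replicates). Vegfa scatters against Ckm (rho 0.175) and is lower where Krt13 is higher (rho −0.657), whereas Tek (rho 0.902) and Vegfb (rho 0.979) rise with Ckm.

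Another ligand of the family did rise with muscle. Vegfb, which binds Flt1 and is abundant in heart and skeletal muscle, was read at 9.89, 33.6, 70.2, 17.2, 12.5 and 28.5 scaled FPKM in vehicle libraries 1 to 6 and at 46.7, 39.0, 33.6, 25.2, 44.4 and 14.4 in GA libraries 1 to 6. Its order was nearly that of Ckm, with r = 0.981 and rho = 0.979 (permutation p = 1e-05 for both, the smallest these resamples can give, adjusted 6e-05 over 6 relations of the other VEGF ligands). Of all genes, 0.470% had a rho with Ckm at least as high. The Spearman coefficient was 0.943 within each group (exact permutation p = 0.0167 for both) and 0.929 over those with no Y-linked reads (exact permutation p = 0.00675), and r was 0.976 without the pair of libraries farthest from the Ckm median. With Krt13 its rho was −0.175 (permutation p = 0.588). Vegfd also had a positive rho with Ckm (0.685, permutation p = 0.0172, adjusted 0.0459; r = 0.711, permutation p = 0.011, adjusted 0.0331), whereas that of Pgf was −0.161 (permutation p = 0.622). With Krt13, Pgf had a rho of −0.657 (permutation p = 0.0229, adjusted 0.0459; r = −0.574, permutation p = 0.0501, adjusted 0.1), and Vegfd one of 0.343 (permutation p = 0.278). Without the pair of libraries farthest from the Krt13 median, the r of Pgf was −0.543. Vegfb, Vegfd and Pgf were examined in this way after the values of the set were known.

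Among the 10 genes, Tek had the highest r and rho with Ckm. Its r with Ckm was 0.864 (permutation p = 7e-05, adjusted 0.0007) and its rho 0.902 (permutation p = 0.00014, adjusted 0.0042), and 3.88% of all genes had a rho at least as high. A rho with an unadjusted p below 0.05 was found for 1 of the 10 genes on the positive side, against 15.6% of all genes, and for 0 of 10 on the negative side, against 14.9%. The Spearman coefficient stayed between 0.873 and 0.936 when any 1 library was left out, and r was 0.796 without the pair of libraries farthest from the Ckm median. Within groups rho was 0.714 with vehicle (exact permutation p = 0.136) and 0.829 with GA (exact permutation p = 0.0583), and over those with no Y-linked reads 0.786 (exact permutation p = 0.048). With the mean of 12 muscle markers rho was 0.874. The other 9 genes had rho with Ckm between −0.182 (Angpt2) and 0.538 (Cdh5), and each of their adjusted p-values for rho was above 0.1 (permutation test). Pearson's r with Ckm was nevertheless 0.653 for Flt1 (permutation p = 0.00937, adjusted 0.0216), 0.620 for Kdr (adjusted 0.0564), 0.574 for Pecam1 (adjusted 0.0682) and 0.571 for Cdh5 (adjusted 0.0726). Without the pair of libraries farthest from the Ckm median, these were 0.542, 0.423, 0.078 and 0.157. A difference between the rho of Tek and those of the other genes was not tested.

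**Figure D5:**
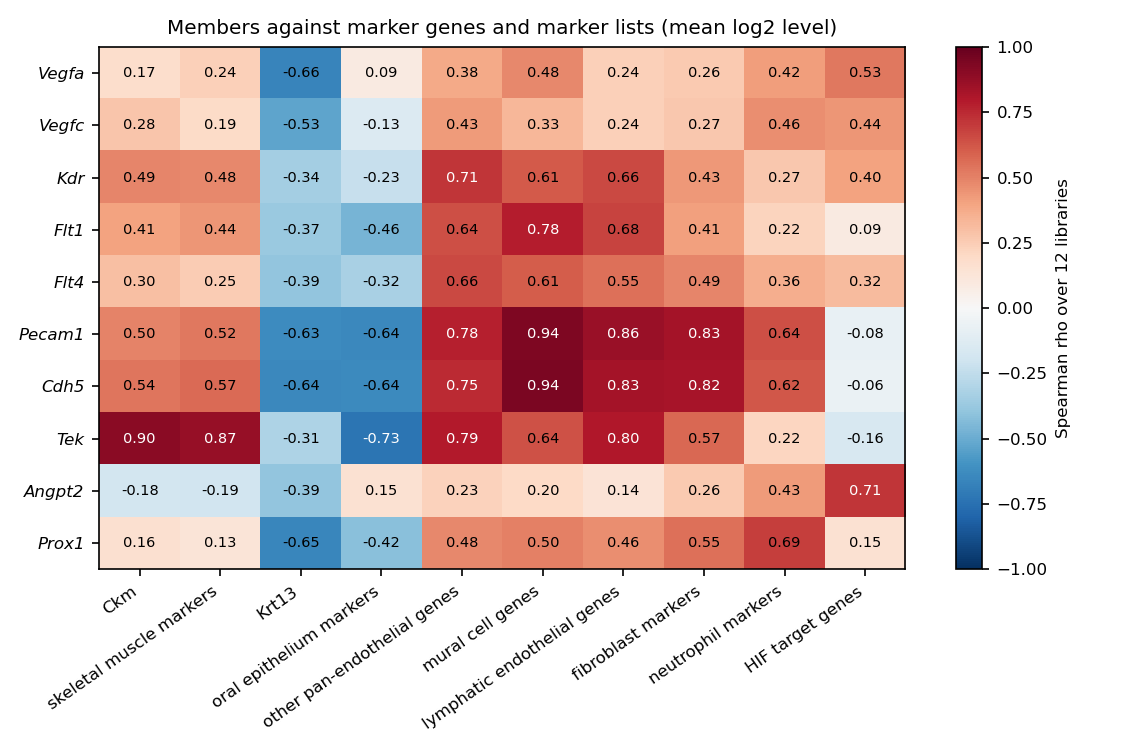
Spearman's rho over 12 libraries between each of the 10 genes (rows) and Ckm, Krt13 or the mean log2 level of a marker list (columns), red for positive and blue for negative values. Tek has its highest value with Ckm (0.902), Pecam1 and Cdh5 with mural cell genes (0.937 and 0.944), Angpt2 with HIF target genes (0.713) and Prox1 with neutrophil markers (0.692).

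Of the 10 genes, Pecam1 and Cdh5 had the highest rho with each other and with mural cell genes. Pecam1 and Cdh5 had a rho of 0.979 with each other, and of 0.776 and 0.748 with the mean of the other pan-endothelial genes (permutation p = 0.00443 and 0.00719, adjusted 0.0443 and 0.0539; r = 0.978 and 0.946). Without vehicle libraries 1 and 5, the pair farthest from the median, their rho with these genes was 0.612 and 0.576 and r was 0.879 and 0.797, and within the GA group rho was 0.657 for both genes (exact permutation p = 0.175). Tek had a rho of 0.790 with the same genes (permutation p = 0.0035, adjusted 0.0443). For Kdr, Flt1, Flt4 and Prox1, r with the pan-endothelial genes was 0.897, 0.915, 0.822 and 0.83 (permutation test, adjusted p = 0.00487 to 0.0186). Without vehicle libraries 1 and 5 these were 0.713, 0.669, 0.353 and 0.3. Their rho had adjusted permutation p of 0.0707 to 0.218. Vegfa, Vegfc and Angpt2 had rho of 0.378, 0.427 and 0.231 with that list (permutation test, adjusted p = 0.302 to 0.525). Their r was 0.56, 0.589 and 0.448 (adjusted permutation p = 0.0682 to 0.173). With the mean of 10 mural cell genes rho was 0.937 for Pecam1 and 0.944 for Cdh5 (permutation p = 8e-05 and 6e-05, adjusted 0.0028 for both over 70 relations chosen after the data were seen). The Spearman coefficient with mural genes stayed at or above 0.918 and 0.927 when any 1 library was left out, and was 0.943 in the vehicle group (exact permutation p = 0.0167) and 0.771 in the GA group (exact permutation p = 0.103) for both genes. Pearson's r with mural genes was 0.986 and 0.987, and 0.959 and 0.949 without the pair of libraries farthest from the median (vehicle libraries 1 and 3). Both genes also had a positive rho with fibroblast markers, 0.832 and 0.825 (permutation p = 0.00139 and 0.00179, adjusted 0.0162 and 0.0179), whereas the adjusted p for rho with these markers was above 0.1 for the other 8 genes. Flt1 had a rho of 0.783 with mural genes (permutation p = 0.00358, adjusted 0.0278), and its r of 0.926 was 0.624 without the same pair. Prox1, in turn, had its highest rho with neutrophil markers, 0.692 (permutation p = 0.0163, adjusted 0.0951), and 0.943 within each group (exact permutation p = 0.0167 for both), but its r was 0.532 (permutation p = 0.0806, adjusted 0.157). Among the other receptors and Prox1, Kdr (rho 0.615), Flt4 (0.608), Tek (0.636) and Prox1 (0.503) had adjusted p-values for rho with mural genes of 0.116 to 0.25 (permutation test). Their r with mural genes was nevertheless 0.908, 0.817, 0.851 and 0.793 (permutation test, adjusted p = 0.00464, 0.0203, 0.0209 and 0.0365). Without vehicle libraries 1 and 3, these were 0.615, 0.606, 0.396 and 0.541. Vegfa had rho with the other 9 genes from 0.245 (Tek) to 0.643 (Kdr), within the range of the pairs of endothelial genes, where Tek and Prox1 had 0.231 and Kdr and Flt1 0.699. Angpt2 and its receptor Tek had a rho of −0.126.

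Angpt2 had its highest value with HIF target genes (Slc2a1, Adm and 7 others), with rho = 0.713 (permutation p = 0.012, adjusted 0.0766) and r = 0.702 (permutation p = 0.00947, adjusted 0.0365). The Spearman coefficient was 0.771 in each group (exact permutation p = 0.103 for both), and r was 0.666 without vehicle library 4 and GA library 6. Vegfa had r = 0.698 with the same genes (permutation p = 0.0124, adjusted 0.0388) and rho = 0.531 (permutation p = 0.0795, adjusted 0.214), and r fell to 0.522 without vehicle library 4 and GA library 6. GA library 6, where Vegfa reached 38.9 scaled FPKM, also held 179.0 of the glucose transporter gene Slc2a1 and 31.0 of the peptide gene Adm, where the other 11 libraries lay between 20.4 and 91.7 and between 2.12 and 12.5. In GA library 6, 5 of 9 HIF target genes had their highest value, against 15.8% of all genes. So did 5 of 11 epithelial markers. What goes with the high Vegfa of this library was not tested. Of the HIF target genes tested, 3 had a higher and 6 a lower fitted mean log2 level with GA. Of all listed genes, Ankrd37 alone had an unadjusted p below 0.05, at a log2 fold change of 0.60 (standard error 0.26). Its p in limma was 0.0398 before and 0.9996 after adjustment.

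The genes whose order over the libraries was most like that of Vegfa, among the 12156 genes that averaged 1 FPKM or more, were Arhgef25 (rho 0.958), Nacc2 (0.951), Pih1d1 (0.951), Selenom (0.937) and St3gal2 (0.930). For Pecam1 they were Cdh5 (0.979), the pericyte channel gene Kcnj8 (0.965), Colec12 (0.951), Mfsd4a (0.944) and Vrk3 (0.937). For Prox1 they were Rara (0.888), Fam117a (0.874), Sema6b (0.867), Entpd1 (0.867) and Trem1 (0.860), the last a receptor of neutrophils and monocytes. These values describe the 12 libraries, which the genes share with their depth and tissue make-up. The list for Pecam1 thus held another gene of the set and a vessel wall gene, whereas none of the 5 for Vegfa or for Prox1 was on the vessel lists.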

How the data were processed

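Tongue RNA was sequenced by the authors in 6 vehicle and 6 GA libraries. Reads were mapped by the authors with HISAT2 (mm10), unique hits were assigned to genes with featureCounts, and FPKM values were deposited (versions, annotation and strand setting are not given in the sources used here). The 22965 of 55463 rows that name no gene were not used (16.2% to 25.5% of each library's FPKM). Library totals were recovered with exon lengths of GENCODE M21 less an offset of 16.75 to 24.25 bases, set for each library. Offset and total were searched so that as many low values as possible came out as whole reads (within 0.02). The share so reached was 97.7% to 98.2% in a library. Libraries were brought to one scale by trimmed mean of M values (trim 0.3 and 0.05), and genes averaging 0.1 FPKM or more were compared with limma 3.58.1 (R 4.3.3) on log2(FPKM + 0.1), a scale that understates changes of low genes. The main alternative to FPKM was limma-voom on the recovered reads. Single genes were also tested by exact two-sided permutation over 924 assignments, which cannot give a p below 0.00216. Relations across libraries used 100000 permutations, or all orders within a group (numpy 2.4.6, scipy 1.17.1). The fit was checked on simulated data. The named genes were the 10 of the set, Ckm and Krt13, up to 3 genes of each list with the lowest p, any listed gene with p below 0.05, and the 5 genes most alike to Vegfa, Pecam1 and Prox1. Genes outside this rule (Vegfb, Vegfd, Slc2a1, Lyve1, Ccl21a, Mmrn1 and several pan-endothelial genes) were named after their values were seen. The genes and lists were chosen with earlier results of these data known. Replicate numbers did not pair the libraries (correlations of −0.372 to 0.080 between equal numbers).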

Additional observations from a re-analysis of the deposited data

Results flagged for a closer look

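Among 50 groups of 6 libraries examined (the 10 genes, Ckm, Krt13 and the marker scores in each treatment group), 4 had a library far from the other 5, where chance gives about 1 in 20. Prox1 was highest in GA library 1, at 0.510 scaled FPKM, and its gap to the next library took up 0.636 of the range of the group. The mean log2 level of HIF target genes was highest in GA library 6 (4.86, gap 0.679 of the range), the library with the highest Vegfa. The mean log2 level of gland markers was highest in GA library 2 (9.22, gap 0.875), as was that of neutrophil markers (3.31, gap 0.698). GA library 2 held the second highest Vegfa of its group and was within the range of the other GA libraries for 9 of the 10 genes.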

How the results depend on the processing

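The count of called genes of the set was 0 under every alternative run, and that over all genes was 0 except for 367 at an unadjusted p below 0.05 and 0 to 1 when libraries were left out in turn (1 without vehicle library 4). With the replicate number as a block, 0 genes were called (lowest adjusted p 0.9998 in limma), and no call of the set changed. Signs of uncalled differences turned in several settings, and the cause was not tested. With a pseudocount of 1, Angpt2 was at −0.10 (log2). With the presence of Y-linked reads in the fit, Vegfa was at −0.034, Vegfc at 0.025, Flt4 at −0.006, Cdh5 at −0.032 and Angpt2 at −0.396. With the muscle marker score in the fit, Kdr was at −0.043 and Cdh5 at −0.105. Vegfc was at 0.064 with the neutrophil score in the fit and, in a setting chosen after seeing the data, at 0.281 without the libraries with high Lipf. Leaving out each library in turn gave ranges of −0.07 to 0.207 for Vegfa, −0.291 to 0.132 for Vegfc, −0.191 to 0.22 for Kdr, −0.03 to 0.336 for Flt1, −0.126 to 0.196 for Flt4, −0.188 to 0.285 for Pecam1, −0.294 to 0.218 for Cdh5, 0.05 to 0.536 for Tek, −0.29 to 0.413 for Angpt2 and 0.071 to 0.42 for Prox1. The rho of Vegfa with Ckm ran from −0.073 (without vehicle library 1) to 0.427, and that with Krt13 from −0.773 to −0.555, with an unadjusted p above 0.05 without vehicle library 1 or GA library 2, 4 or 5. With the mean of epithelial markers in place of Krt13 it was 0.091. Prox1 has no value with a filter of at least 1 FPKM. At 11 to 109 reads in a library, Prox1 and Vegfc are the genes that depth limits most.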
